A study of Mus musculus with 4 samples.

Results

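Pigment epithelium and melanin genes are described here in the retina of 3-week-old mice, as 10 genes out of the 52636 in the deposited table. They were chosen by name, with no value in the rule but with earlier results of these data known: Pmel, Tyr, Tyrp1, Dct and Mlana, which serve melanin and the melanosome, the regulator Mitf, and Rgr, Lrat, Rdh5 and Best1, which serve the pigment epithelium. All 10 were found in the table, each under 1 Ensembl identifier. The study sequenced polyadenylated RNA from retinas of WT mice and of mice with the rhodopsin mutation Q344X, in 2 libraries per genotype; in people this mutation causes a dominant form of retinitis pigmentosa, in which photoreceptors degenerate. Mice of both genotypes were 3 weeks old, and retinas of both went into a stabilization reagent. The labels give no strain, coat colour, sex or litter, and do not say how the Q344X allele was made or how many copies the mice carried. Submitters report 2 animals per genotype after exclusions for RNA quality and outliers, but their extraction text counts 3 Q344X and 2 WT mice; the spread behind each p-value is therefore that of these libraries, which may be technical in part.

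The retinal pigment epithelium is a single layer of pigmented cells behind the photoreceptors. It returns visual chromophore to them, takes up shed outer segment tips and absorbs stray light with melanin held in melanosomes. Melanin is made from tyrosine by tyrosinase and its relatives TYRP1 and DCT on fibres of the PMEL protein, and MITF is the transcription factor that governs these genes in pigment cells. The same melanin genes are active in melanocytes of the choroid and in the pigmented layers of iris and ciliary body, so their RNA does not name a cell type by itself. Rgr is also expressed in Müller glia. A dissected retina holds pigment epithelium only as far as that layer stays attached, and in bulk RNA fewer cells of a type and less RNA per cell cannot be told apart.

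The 4 libraries held 18452679 to 19706573 reads in genes, computed from the worth of 1 read in each column. Rod genes marked the tissue as retina: 8 rod markers summed to 521202 and 589559 normalized counts in WT and to 311965 and 350625 in Q344X. One library stood apart in its lens RNA. The 7 lens markers summed to 176709 and 212400 in WT and 170319 in Q344X replicate 1, but to 4977 in Q344X replicate 2, at 2.56% of the WT mean. Per-gene values cannot show a base change, so the genotype labels were not checked against the mutation. Among 16833 genes tested with limma (mean normalized count of at least 10, Benjamini-Hochberg adjusted p under 0.05), 5.46% were higher and 9.10% lower in Q344X.

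Of the 10 genes, 9 reached the mean of 10 and were tested. In Q344X Pmel and Tyr were higher, Mitf was lower, and 6 did not pass the threshold. The 10th, Best1, had a mean of 9.93, just short of the filter, and has values only. When every gene above 0 was tested, which widens the adjustment, Pmel (limma adjusted p = 0.0577), Tyr (0.0902) and Mitf (0.0845) did not pass, with unchanged fold changes. The median log2 fold change of the 9 was 0.28, against 0.02 over all tested genes. That median is the value of Mlana, with 14 to 34 reads per library and a 95% interval of -0.91 to 1.47. In 6 of the 9 the libraries of both genotypes did not overlap, 4 lying higher and 2 lower in Q344X, where 63.1% of all tested genes had no overlap (31.4% higher and 31.7% lower).

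**Figure D1:**
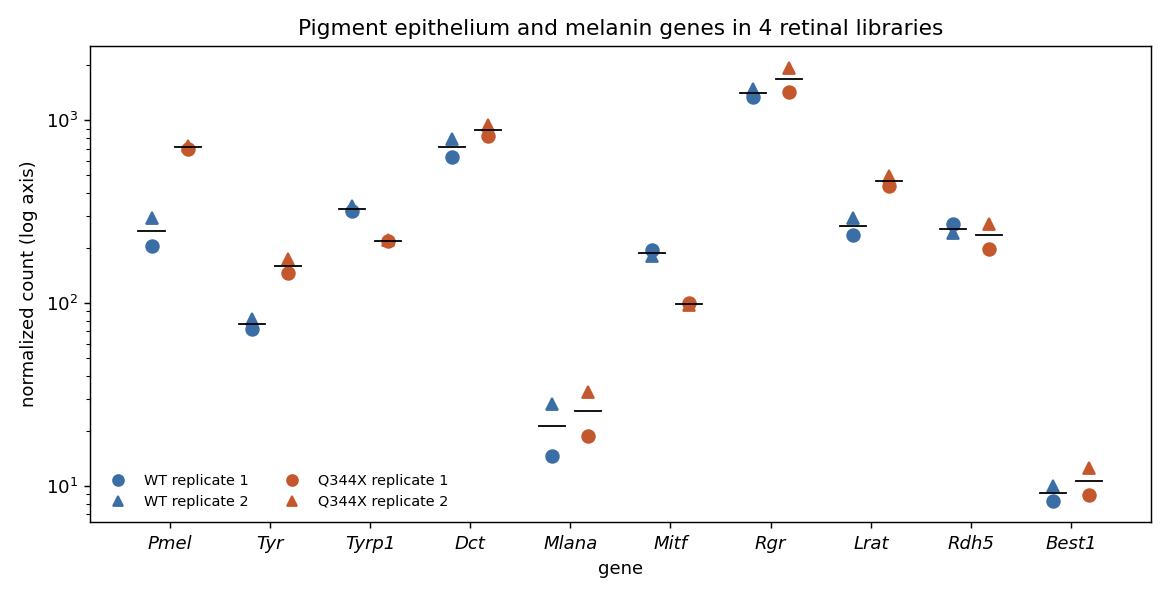
Normalized count (log axis) of each of the 10 genes in the 4 libraries, WT in blue and Q344X in orange, with circles for replicate 1, triangles for replicate 2 and a bar at the mean of each genotype. Pmel, Tyr, Lrat and, by a small gap, Dct lie higher in both Q344X libraries, Tyrp1 and Mitf lie lower, and Rgr, Rdh5, Mlana and Best1 overlap.

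The 3 melanin enzymes belong to 1 family and are known targets of MITF, so their start sites are shown first. RefSeq windows of 250 bases before to 50 bases after a start site (GRCm38.p6) were found for 8 of the 10 genes, in 10 windows since Mitf has 3, and not for Pmel and Mlana. The 250 bases before the start are printed 5′ to 3′ on the gene's strand for Tyr (chr7:87493513-87493762, minus strand), Tyrp1 (chr4:80833963-80834212, plus strand) and Dct (chr14:118052247-118052496, minus strand). Capitals mark TCATGTG, the M-box that MITF binds, or the same motif read on the other strand.
Tyr: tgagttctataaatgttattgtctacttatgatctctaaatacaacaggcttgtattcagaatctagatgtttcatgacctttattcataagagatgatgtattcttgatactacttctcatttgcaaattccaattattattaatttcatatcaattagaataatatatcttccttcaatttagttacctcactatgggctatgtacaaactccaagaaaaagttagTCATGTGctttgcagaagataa
Tyrp1: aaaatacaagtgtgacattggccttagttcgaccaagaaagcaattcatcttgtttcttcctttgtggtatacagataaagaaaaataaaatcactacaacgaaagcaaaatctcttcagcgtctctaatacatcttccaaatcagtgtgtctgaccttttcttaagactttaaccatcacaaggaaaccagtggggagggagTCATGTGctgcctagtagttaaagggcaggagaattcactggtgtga
Dct: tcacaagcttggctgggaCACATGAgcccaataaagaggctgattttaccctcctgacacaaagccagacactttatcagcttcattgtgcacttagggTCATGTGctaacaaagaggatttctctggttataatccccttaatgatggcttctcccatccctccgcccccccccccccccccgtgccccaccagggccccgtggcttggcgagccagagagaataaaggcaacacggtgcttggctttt
The motif began 22 bases before the start in Tyr, 47 in Tyrp1 and 151 in Dct. Dct held another copy, on the other strand, 232 bases before. GENCODE M21 places the start of Tyrp1 further upstream, at 80834123, so the Tyrp1 match lies inside the gene's span there. No other window of the 8 genes held TCATGTG, and 3.77% of all 32851 windows did. The shorter CATGTG, which lies within it, was also in Rgr (14.2% of all windows held it), and CACGTG, another MITF motif, was in none of the 10 (7.15% of all). TAATCC, the motif of OTX2, was in 5 of the 10 windows, those of Best1, Dct, Rgr and Tyrp1 and 1 of the 3 of Mitf, against 7.06% of all windows; both strands were searched for every motif. A match describes the letters and is not a binding site measured here. The log2 fold changes of these enzymes were 1.04 (Tyr), -0.58 (Tyrp1) and 0.32 (Dct), and only that of Tyr passed the threshold.

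Tyr encodes tyrosinase, the copper enzyme of the first and rate-limiting step of melanin synthesis (ENSMUSG00000004651, chr7:87424771-87493512, GRCm38). Its normalized counts were 71.8 and 82.2 in WT and 146 and 175 in Q344X. Both Q344X libraries were above both WT libraries, from 69 and 82 reads to 147 and 182. The log2 fold change was 1.04 ± 0.24 (SE; limma adjusted p = 0.0405), a ratio of means of 2.08. This call was lost without WT replicate 1 (limma adjusted p = 0.199), without WT replicate 2 (0.106) and without Q344X replicate 2 (0.0696), with log2 fold changes of 0.91 to 1.17 over the fits that left out 1 library.

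Tyrp1 encodes tyrosinase-related protein 1, which acts late in eumelanin synthesis and stabilizes tyrosinase (ENSMUSG00000005994, chr4:80834123-80851719). It was at 318 and 338 normalized counts in WT and at 219 and 221 in Q344X. The Q344X libraries were the lower ones, with no overlap and little spread within either genotype. Its log2 fold change of -0.58 ± 0.19 (SE) did not pass the threshold (limma adjusted p = 0.0923). Dct encodes dopachrome tautomerase, the enzyme between the other two (ENSMUSG00000022129, chr14:118012790-118052244). Its values were 632 and 788 in WT and 821 and 943 in Q344X. The highest WT library lay close to the lowest Q344X library, and the log2 fold change was 0.32 ± 0.20 (SE), with a 95% interval of -0.18 to 0.81 (limma adjusted p = 0.310).

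Within a library, the ratio of Tyr to Tyrp1 normalized counts was 0.225 and 0.243 in WT and 0.665 and 0.791 in Q344X. Both Q344X ratios were above both WT ratios, and the replicates of each genotype were close together. The ratio of Pmel to Mitf moved further, from 1.05 and 1.61 to 6.99 and 7.37. These ratios were picked after the values were seen and were not tested: 2 libraries against 2 cannot give an exact permutation p below 0.333.

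Pmel and Mlana encode structural and sorting proteins of the melanosome. Pmel, whose product forms the fibres on which melanin is laid down (ENSMUSG00000025359, chr10:128704195-128720238), was at 206 and 292 normalized counts in WT and at 699 and 722 in Q344X. Both Q344X libraries were above both WT libraries, and the WT libraries were further apart than the Q344X ones. It had the largest rise of the 9 tested genes, with a log2 fold change of 1.53 ± 0.23 (SE; limma adjusted p = 0.0159). Pmel kept its direction with any 1 library left out, with log2 fold changes of 1.28 to 1.78. Such a fit leaves 1 library in 1 genotype, so a call there does not measure the spread within it. Its ends overlap 2 genes on the opposite strand, Cdk2 over 34 and Dgka over 105 of its 2292 exon bases, and whether reads were counted by strand was not stated in the labels. Cdk2 was at 62.4 and 62.2 in WT and 110 and 96.9 in Q344X, and Dgka at 144 and 98.3 against 96.0 and 74.9, all below Pmel.

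Mlana, a small melanosomal membrane protein that binds PMEL (ENSMUSG00000024806, chr19:29697824-29708634), was at 14.6 and 28.1 normalized counts in WT and at 18.8 and 32.6 in Q344X. The spread within each genotype was wider than the gap between them. With 14 to 34 reads per library, the 95% interval of the log2 fold change ran from -0.91 to 1.47, which holds both 0 and the change of Tyr (limma adjusted p = 0.713).

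Mitf encodes the helix-loop-helix factor that binds the M-box (ENSMUSG00000035158, chr6:97807052-98021349). It is transcribed from several start sites, some used in pigment epithelium and 1 in melanocytes, and values per gene do not separate them. Mitf was at 196 and 181 normalized counts in WT and at 99.99 and 97.9 in Q344X. The genotypes were apart, and the replicates within each were close. The log2 fold change was -0.92 ± 0.21 (SE; limma adjusted p = 0.0412). This call was lost without WT replicate 1 (limma adjusted p = 0.259), without WT replicate 2 (0.171), with scaling to the 75th percentile (0.0573) and under quantile normalization (0.0700), and the direction was lower in each.

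**Figure D2:**
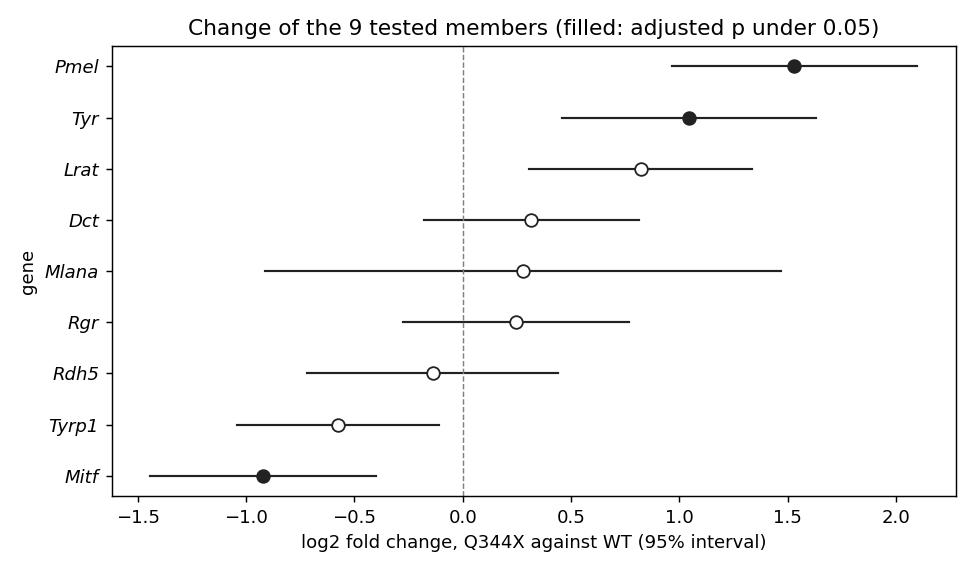
Log2 fold change of Q344X against WT for the 9 tested genes, with the 95% interval of limma, which is not adjusted for the number of genes; filled points have an adjusted p under 0.05. Pmel (1.53) and Tyr (1.04) lie to the right and Mitf (-0.92) to the left, and the intervals of Dct, Mlana, Rgr and Rdh5 hold 0.

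None of the 4 genes of the pigment epithelium passed the threshold. Lrat encodes lecithin retinol acyltransferase, which makes the retinyl esters that the isomerase RPE65 uses (ENSMUSG00000028003, chr3:82892579-82903973). It was at 235 and 292 normalized counts in WT and at 436 and 493 in Q344X. The Q344X libraries were both higher, and the log2 fold change was 0.82 ± 0.21 (SE), just short of the threshold (limma adjusted p = 0.0523). Lrat passed with scaling to the 75th percentile (limma adjusted p = 0.0441) and under quantile normalization (0.0433). With 1 library left out its log2 fold change ran from 0.67 to 0.98.

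Rgr encodes an opsin of pigment epithelium and Müller glia that isomerizes retinal in the light (ENSMUSG00000021804, chr14:37034909-37048964). It was the most abundant of the 10, at 1335 and 1475 normalized counts in WT and 1431 and 1941 in Q344X. The genotypes overlapped, since Q344X replicate 1 lay below WT replicate 2, and the log2 fold change was 0.25 ± 0.21 (SE; limma adjusted p = 0.446). Rdh5 encodes the 11-cis retinol dehydrogenase that acts after RPE65 (ENSMUSG00000025350, chr10:128913593-128922888). It was at 270.4 and 241 in WT and 198 and 271 in Q344X, also overlapping, with a log2 fold change of -0.14 ± 0.24 (SE; limma adjusted p = 0.705). Rdh5 shares 720 of its 2809 exon bases with Bloc1s1 on the same strand, so reads there could be assigned to either gene or to none. Bloc1s1 was at 178 and 232 in WT and at 219 and 488 in Q344X.

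Best1 encodes bestrophin 1, a calcium-activated chloride channel of the basolateral membrane of the pigment epithelium (ENSMUSG00000037418, chr19:9985174-10001633). It was at 8.32 and 10.03 normalized counts in WT and at 8.91 and 12.5 in Q344X, that is 8 to 13 reads per library. The genotypes overlapped. With no filter on low values the log2 fold change was 0.19 ± 0.40 (SE; limma adjusted p = 0.785).

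Levels of different genes were compared as normalized counts per kilobase of annotated exon. Rgr was highest, with a mean of 323 over the 4 libraries, followed by Pmel (209), Dct (135), Tyrp1 (96.9), Rdh5 (87.2) and Lrat (68.0). Mitf (23.2), Mlana (22.3), Tyr (16.7) and Best1 (3.85) were lower. Neighbours in this order overlapped in their ranges over the 4 libraries, except that Lrat lay above Mitf and Tyr above Best1 in every library. The order differed between genotypes on this scale. Pmel was the 4th of the 10 in WT, at a mean of 109 per kilobase, and the 2nd in Q344X, at 310. Tyrp1 was the 3rd in WT and the 6th in Q344X, and Mitf went from the 7th to the 9th. These places are of the means and do not all hold in each library. Pmel was below Tyrp1 in WT replicate 1 (89.8 and 113) and above it in WT replicate 2 (127 and 119). In Q344X replicate 1 Tyrp1 (77.4) was above Rdh5 (70.5).

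The genes nearest in profile were sought among those with a mean of at least 50, by the distance between log2 values centred on each gene's mean over the 4 libraries. For Dct, the most abundant melanin gene, they were Trappc10 (distance 0.020), Atxn1l (0.027) and B3gnt9 (0.033). For Rgr they were Hexim2 (0.0099), Ngdn (0.020) and Gm16701 (0.021). With 4 libraries and 13326 genes compared, close profiles are common, and these are given as a description only.

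The wider sets of pigment genes also held calls in both directions, to be read against the 5.46% of all tested genes called higher and the 9.10% called lower. In a list of 35 melanosome genes, which holds the 5 melanin members, 2 rose (Pmel and Tyr), 2 fell and 31 did not pass, which is near or below those shares. The list's median log2 fold change was 0.06, against 0.02 over all tested genes, and turned to -0.12 without WT replicate 1 and -0.024 without WT replicate 2. Those that fell were Myrip, a linker of RAB27A to myosin VIIA in retinal melanosome transport, and Gpnmb, a PMEL-related glycoprotein also found in macrophages. Myrip was at 1890 and 2146 normalized counts in WT and at 648 and 721 in Q344X, with a log2 fold change of -1.56 ± 0.18 (SE; limma adjusted p = 0.00903). With 1 library left out its log2 fold change ran from -1.65 to -1.47. Gpnmb was at 413 and 456 against 184 and 181 (-1.24 ± 0.19, SE; limma adjusted p = 0.0164), and was not past the threshold without WT replicate 2 (0.0698). Both genes were separate between genotypes with close replicates. Of the 30 tested genes of this list outside the 10, 0 rose by limma, or 1 at an unadjusted p under 0.05. Over all 35, 3 were higher and 8 lower at an unadjusted limma p under 0.05. The share of all tested genes at an unadjusted p was not computed, so these unadjusted counts are not a result about the list. Without overlap, 7 of the 35 lay higher and 10 lower, shares no larger than the 31.4% and 31.7% of all tested genes.

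Regulators were represented by 13 genes, of which 11 were tested, 0 rose by limma (1 at an unadjusted p under 0.05), 2 fell and 9 did not pass, with a median of 0.25. So few calls among 11 genes say little beside a share of 9.10% called lower in all. Beside Mitf, Ednrb fell, from 387 and 367 normalized counts to 153 and 133 (log2 fold change -1.39 ± 0.20, SE; limma adjusted p = 0.0146). Ednrb encodes the endothelin receptor that melanocyte precursors need, and Müller glia express it too. Otx2, a partner of MITF in the pigment epithelium that photoreceptors and bipolar cells also express, was at 4888 and 4457 in WT and 7262 and 6661 in Q344X (0.58 ± 0.17, SE; limma adjusted p = 0.0755). Pax6, an eye-field factor, was at 7201 and 5631 against 8349 and 6903. Without Q344X replicate 1, 2 of the regulators rose. Tfec, a relative of Mitf, was at 0 in 3 libraries and at 0.960 in Q344X replicate 2.

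Among 30 pigment epithelium genes, 28 were tested, 4 rose, 1 fell and 23 did not pass, beside shares of 5.46% higher and 9.10% lower in all, with a median of 0.13. Without overlap between genotypes, 12 of the 28 lay higher and 4 lower, where 31.4% and 31.7% of all tested genes did. Slc16a8 encodes MCT3, the lactate transporter of the basolateral membrane of the pigment epithelium. It was at 122 and 164 normalized counts in WT and 518 and 832 in Q344X, which is a larger change than in any of the 10 genes (log2 fold change 2.21 ± 0.30, SE; limma adjusted p = 0.0124). Serpinf1, which encodes the secreted factor PEDF, rose from 67.6 and 56.1 to 158 and 177 (1.43 ± 0.24, SE; limma adjusted p = 0.0206). Rpe65, the isomerase, was at 471 and 427 in WT and at 923 and 1134 in Q344X (1.19 ± 0.20, SE; limma adjusted p = 0.0197). Cdh3, which encodes P-cadherin, was the fourth, with 1.09 ± 0.25 (SE; limma adjusted p = 0.0424), and was named after its values were seen. In each of these 4 genes both Q344X libraries lay above both WT libraries. With no filter on low values, none of the 4 passed (limma adjusted p of 0.0553 to 0.0891), nor did Gpnmb (0.0528) or Cdh1 (0.0998), while Myrip (0.0393) and Ednrb (0.0489) did.

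Cdh1, E-cadherin, fell from 239 and 162 normalized counts to 84.2 and 50.9 (log2 fold change -1.58 ± 0.34, SE; limma adjusted p = 0.0363), and passed neither without WT replicate 1 (0.0714) nor under quantile normalization (0.0501). Serpinf1 and Rpe65 did not pass without WT replicate 2 (limma adjusted p = 0.0616 and 0.0697), and Cdh3 did not in 3 of the 4 fits with 1 library left out (0.0550 to 0.183). Leaving out 1 library gave 1 to 9 genes of this list that rose. Some other genes of the list had log2 fold changes near 0. Bsg, which encodes the chaperone of MCT3, had -0.02 ± 0.19 (SE), Rlbp1, shared with Müller glia, -0.07 ± 0.19, and the channel gene Kcnj13 0.01 ± 0.24, none past the threshold. Others that did not pass had larger values, such as Krt8 (1.08 ± 0.31, SE), Clic6 (0.71 ± 0.20) and Krt18 (-0.54 ± 0.19).

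**Figure D3:**
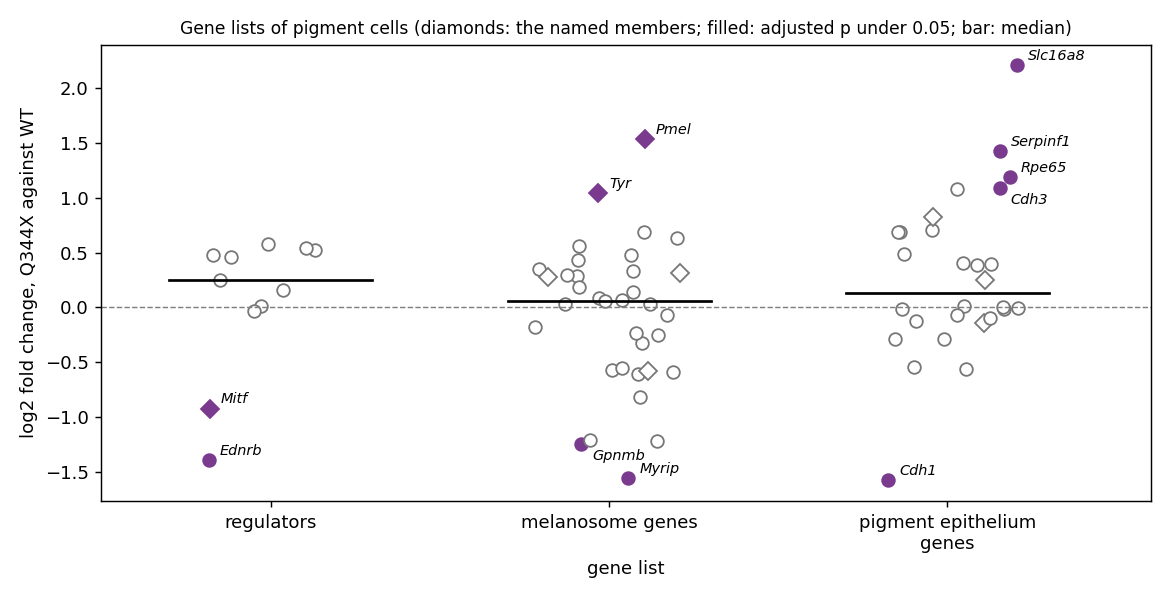
Log2 fold change of Q344X against WT for every tested gene of 3 lists, with the chosen genes as diamonds, filled symbols for adjusted p under 0.05 and a bar at each list's median. Each list holds changes in both directions, from Slc16a8 (2.21) to Cdh1 (-1.58).

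Markers of other tissues that a dissection could carry were summed in each library. Of 6 markers of neural crest melanocytes and Schwann cells, Pax3 was at 0 in all libraries. Sox10, a factor of both cell types, was at 8.32 and 9.02 normalized counts in WT and at 11.9 and 14.4 in Q344X, not past the threshold. The 6 markers summed to 1131 and 1252 in WT and to 955 and 815 in Q344X, with Ednrb the 1 gene of 5 tested that fell. The 7 matched markers of ciliary body and iris summed to 5405 and 6073 in WT and 2757 and 3406 in Q344X. Much of that was Aqp1, a water channel gene, which fell from 2626 and 3421 to 525 and 682 (log2 fold change -2.32 ± 0.23, SE; limma adjusted p = 0.00628). Without Aqp1 the other 6 summed to 2779 and 2652 in WT and 2232 and 2724 in Q344X, which overlap. In the same list the transcription factor gene Zic1 (350.5 and 361 in WT, 369 and 486 in Q344X) lay higher in Q344X. Zic2 did too (134 and 139 against 176 and 327), and neither passed the threshold. Optc (1907 and 1810 in WT, 1375 and 1755 in Q344X) lay lower without passing. So did Acta2 (239 and 250 against 228 and 103) and Myh11 (135 and 79.2 against 78.2 and 37.4). Of the 7 tested, 2 lay higher and 4 lower without overlap, where 31.4% and 31.7% of all tested genes did. Fibroblast markers of choroid and sclera, 5 genes, summed to 519 and 602 in WT and 376 and 404 in Q344X. The 8 Müller glia markers summed to 112209 and 100287 in WT and 97954 and 94027 in Q344X. Of these 8, 2 fell (Aqp4 and Kcnj10), 5 overlapped between genotypes and 3 lay lower without overlap. Calls in these marker lists are to be read beside the 9.10% of all tested genes called lower. Summed over the 10 pigment genes, the values were 3287 and 3727 in WT and 4076 and 4908 in Q344X. The sums of these 4 marker lists lay lower in Q344X, that of ciliary body and iris through Aqp1. The sum of the 10 genes lay higher, but its largest part, Rgr, overlapped between genotypes, and Pmel rose from 206 and 292 to 699 and 722. It was not a rise of every gene, since Tyrp1 and Mitf lay lower and Rgr, Rdh5, Mlana and Best1 overlapped. The part of these marker lists in the results was not tested.

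Between Q344X replicate 1, with lens RNA near the WT level, and replicate 2, with little of it, Pmel (699 and 722), Mitf (99.99 and 97.9) and Tyrp1 (219 and 221) lay close together. Tyr (146 and 175), Lrat (436 and 493), Dct (821 and 943) and Slc16a8 (518 and 832) were higher in replicate 2. Without Q344X replicate 2 the log2 fold changes were 1.51 for Pmel, 0.91 for Tyr and -0.91 for Mitf. Rgr, Rdh5, Mlana and Best1 were also higher in Q344X replicate 2 than in replicate 1, by 0.44, 0.45, 0.76 and 0.44 on the log2 scale. The part of this library difference in the results was not tested.

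**Figure D4:**
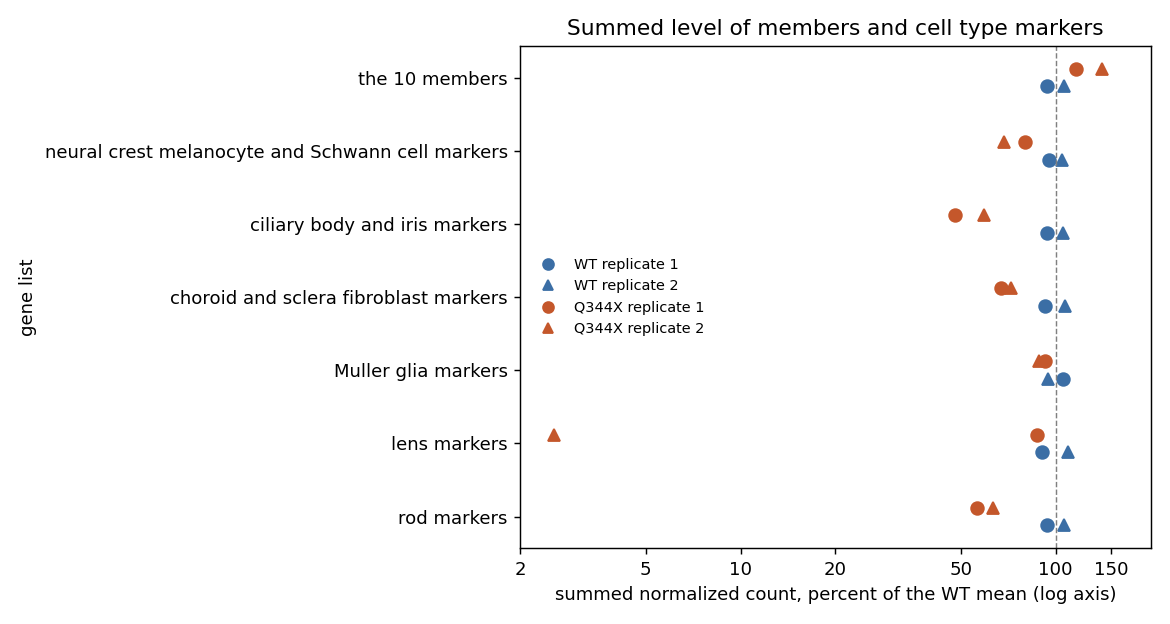
Summed normalized count of the 10 genes and of 6 marker lists in each library, as percent of the WT mean on a log axis; symbols are circles for replicate 1 and triangles for replicate 2, WT in blue and Q344X in orange. Lens markers are at 2.56% in Q344X replicate 2 and at 87.5% to 109% in the other libraries, and the 10 genes are at 116% and 140.0% in Q344X.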

How the data were processed

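Retinal polyadenylated RNA was measured in 4 libraries, 2 WT and 2 Q344X, grouped by their phenotype label. The values are a signal per gene that the authors deposited as normalized counts, in which all values above 0 came to whole reads (within 0.1) once divided by the smallest one of the library, as counts over size factors of 0.962 to 1.04 would. Per the submitters' processing notes, build mm10 was used with STAR, featureCounts, DESeq2 1.16.1, Trim Galore 0.4.4 and FastQC; their roles, the annotation and the counting by strand were not given in the sources used here. No count model was run, since a stricter check for whole reads failed in the 2 columns where 1 read is worth close to 1.

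Symbols matched 52403 of 52636 identifiers. Genes with a mean of at least 10 were tested in R 4.3.3 with limma 3.58.1 on log2(value + 1), with a mean-variance trend, two-sided, with 2 residual and 3.90 prior degrees of freedom. Fold changes on this scale understate changes of low genes. Group values rest on n = 2. The fit was tested on simulated data. Alternatives left out each library in turn, changed the pseudocount to 0.5 or 5, dropped the filter or raised it to 50, rescaled to the 75th percentile or by quantiles, and moderated variances robustly. A fit without 1 library kept 1 library of that genotype, so the spread within it was not measured. Gene positions and exon lengths are from GENCODE M21 (GRCm38), promoters from RefSeq. All 10 genes are named, with up to 4 per list by size of change and then by mean. Further genes, such as Cdh3, Kcnj13, Tfec and Zic2, were named outside this rule. One marker gene of the lists is not reported here. The genes and lists were chosen with earlier results of these data known.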

Additional observations from a re-analysis of the deposited data

How the results depend on the processing

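No paired analysis was possible because the labels give no numbers that tie a WT to a Q344X library; replicates 1 and 2 are named in accession order. Pmel, Tyr and Mitf kept their directions under the alternatives run, and of 98 values of the 9 tested genes 82 kept both direction and side of the threshold. The 3 that turned direction belonged to genes not past the threshold: Mlana had -0.17 without WT replicate 1 and -0.10 without Q344X replicate 2 (range -0.17 to 0.73 with 1 library left out), and Rdh5 0.085 without Q344X replicate 1 (range -0.36 to 0.085). Over the fits that left out 1 library, 555 to 2388 genes were higher and 904 to 3045 lower in all, 1 to 3 and 0 to 1 of the 10, 0 to 2 and 1 to 2 regulators, 1 to 5 and 2 to 7 melanosome genes, and 1 to 9 and 0 to 2 pigment epithelium genes. The medians of these 3 lists then ran from 0.15 to 0.38, from -0.12 to 0.050 and from 0.14 to 0.25. In each of those fits 1 genotype had 1 library, so the p-values behind the counts do not measure the spread within it. With no filter, 153 genes were higher and 383 lower, 0 and 0 of the 10 (3 and 2 at an unadjusted p under 0.05), 1 regulator and 1 melanosome gene lower with 0 melanosome genes higher, and 0 pigment epithelium genes passed (8 higher and 3 lower at an unadjusted p under 0.05), whose median was 0.19. More genes shared the variance estimate and the adjustment in that fit. The share of all genes at an unadjusted p under 0.05 was not computed, so the unadjusted counts are not a result about the 10 genes or the lists. Scaling to the 75th percentile and quantile normalization each left 0 of the 10 lower and 1 regulator lower. The median of pigment epithelium genes was 0.20 in both, 0.011 with a minimum mean of 50, and that of melanosome genes 0.13 with the 75th percentile; 0 pigment epithelium genes were lower under quantile normalization. The median of all tested genes lay between 0.0016 and 0.090 over these settings. Depth limits Best1, with 8 to 13 reads per library, and Mlana, with 14 to 34.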
